A study of Mus musculus with 2 samples.

Results

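The miR-17~92 cluster is a group of microRNA (miRNA) genes that are transcribed as 1 long RNA and then cut into separate hairpin precursors. Its 6 members, Mir17, Mir18, Mir19a, Mir20a, Mir19b-1 and Mir92-1 (the genes of miR-18a and miR-92a carry the symbols Mir18 and Mir92-1), were taken by gene identifier from the 1973 miRNA genes counted. The samples were the hearts of newborn B6NCrl mice on postnatal day 0, sequenced as small RNA with inserts below 30 nt. There was 1 group of 2 hearts: replicate 1 came from pup 2 and replicate 2 from pup 3 of the same pregnant female, their sex was not collected, and no animal was treated. The design therefore holds no contrast between conditions. The values below describe the reads counted on each member in the newborn heart. They also describe how these counts related between members and to their relatives, and how far the 2 hearts differed.

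MiRNAs are short RNAs that guide a silencing complex to messenger RNAs, and the bases 2 to 8 of the mature strand, called the seed, do most of the target recognition. The miR-17~92 transcript is known as a target of MYC and E2F factors, and it promotes cell growth and survival, in part through repression of the death factor Bim (Bcl2l11). Mice without the cluster die around birth with small lungs and ventricular septal defects, and miR-19 family members promote the division of cardiomyocytes. MiR-92a acts on blood vessel growth in endothelial cells.

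On GRCm38, the assembly also called mm10, the 6 precursors lie on the plus strand of chromosome 14 within 836 nt, from 115043671 to 115044506. All 6 lie in exon 2 (115043271 to 115046727) of the host gene Mir17hg as GENCODE M21 annotates it, a long noncoding RNA gene from 115042879 to 115046727. Mir17 (ENSMUSG00000065508.1) spans 115043671 to 115043754, and Mir18 (ENSMUSG00000065403.1) follows at 115043851 to 115043946. Mir19a (ENSMUSG00000065416.1) spans 115044000 to 115044081, and Mir20a (ENSMUSG00000065442.1) 115044157 to 115044263. Mir19b-1 (ENSMUSG00000076256.1) spans 115044305 to 115044391, and Mir92-1 (ENSMUSG00000076062.1) closes the row at 115044427 to 115044506. The gaps between neighbours were 35 to 96 nt.

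The 6 hairpin precursors are printed because all of them come from the same transcript while their levels, given below, were far apart. The sequences are from RefSeq on GRCm38.p6, where all 6 matched, and the annotated mature arms are in capitals. Mir19a has 1 annotated arm there and the other members have both.
Mir17: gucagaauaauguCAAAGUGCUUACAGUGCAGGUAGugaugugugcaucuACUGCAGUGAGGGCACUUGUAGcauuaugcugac
Mir18: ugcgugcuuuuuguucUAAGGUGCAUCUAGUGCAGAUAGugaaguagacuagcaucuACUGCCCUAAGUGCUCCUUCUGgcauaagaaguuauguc
Mir19a: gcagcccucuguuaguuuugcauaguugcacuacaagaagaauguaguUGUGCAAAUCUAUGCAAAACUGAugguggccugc
Mir20a: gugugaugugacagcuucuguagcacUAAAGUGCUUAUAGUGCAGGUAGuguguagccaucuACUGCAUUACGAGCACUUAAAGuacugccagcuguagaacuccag
Mir19b-1: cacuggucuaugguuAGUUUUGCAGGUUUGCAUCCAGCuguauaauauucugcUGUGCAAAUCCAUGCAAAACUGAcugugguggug
Mir92-1: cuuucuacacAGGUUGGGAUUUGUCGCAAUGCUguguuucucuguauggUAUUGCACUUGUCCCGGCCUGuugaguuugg

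By seed the members form 4 families, and the mature strands that define them are set out with the seed in capitals.
miR-17-5p: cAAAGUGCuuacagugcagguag
miR-20a-5p: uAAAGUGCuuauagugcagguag
miR-18a-5p: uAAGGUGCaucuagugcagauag
miR-19a-3p: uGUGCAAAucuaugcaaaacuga
miR-19b-3p: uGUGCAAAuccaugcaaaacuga
miR-92a-3p: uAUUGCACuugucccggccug

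Counted from base 1 at the 5′ end, miR-17-5p and miR-20a-5p differed at 2 bases, C1U and C12U, both outside the seed. MiR-19a-3p and miR-19b-3p differed by U11C alone. The sequence of miR-19b-3p is annotated at 2 loci, Mir19b-1 and Mir19b-2, and that of miR-92a-3p also at 2, Mir92-1 and Mir92-2, whereas the other mature strands of the cluster were each found at 1 locus of the miRNA table. In the GENCODE M21 transcripts, miR-19a-3p occurred only in Mir19a itself and in the host transcript Mir17hg. The rest of the genome was not searched. Reads aligned to several places made up 36.6% of reads in replicate 1 and 37.1% in replicate 2 and were not resolved by gene, so the counts of Mir19b-1 and Mir92-1 are uncertain. The mismatches allowed in alignment are not known. Whether reads of miR-19a-3p, 1 base from miR-19b-3p, were among those aligned to several places was not tested. Each gene has a single count, in which its 2 arms are not told apart.

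The members fell into an abundant set of 4 genes and the 2 miR-19 genes, which were almost uncounted. Levels are CPM, sense-strand counts scaled to 1000000 sense-strand counts on miRNA genes (2323450 in replicate 1 and 3487183 in replicate 2), with exact Clopper-Pearson 95% intervals per library that cover counting error only. Without molecular identifiers, several reads may stem from 1 molecule. Because inserts were below 30 nt, no read covers a whole precursor, and levels were not divided by length except where stated. The efficiency with which each member is turned into reads is unknown, so that comparisons between members compare counts.

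Mir17, the first hairpin and founder of the seed family shared with Mir20a, was the highest. It had 19576 counts in replicate 1 and 30421 in replicate 2, or 8425 CPM (8308 to 8544) and 8724 CPM (8626 to 8822). Its mean of 8575 ± 211 CPM (SD, n = 2) ranked 22 among the 1973 genes. The 2 hearts were close at this gene, which held 59.9% of the cluster's counts in each.

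Mir20a, which carries the same seed as Mir17, had 7568 counts in replicate 1 and 12238 in replicate 2. That gave 3257 CPM (3184 to 3331) and 3509 CPM (3448 to 3572), a mean of 3383 ± 178 CPM (SD, n = 2) and rank 32. It held 23.6% ± 0.679 of the cluster's counts, and both libraries placed it second within the cluster.

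Mir18, whose mature strand differs from the miR-17 seed by an A-to-G change within the seed, had 3096 and 4994 counts in replicates 1 and 2. These were 1333 CPM (1286 to 1380.2) in replicate 1, against 1432 CPM (1393 to 1472) in replicate 2, with a mean of 1382 ± 70.4 CPM (SD, n = 2) and rank 67. It contributed 9.65% ± 0.260 of the cluster's counts.

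Mir92-1, the last hairpin and a source of miR-92a, had 2424 counts in replicate 1 and 3064 in replicate 2. Unlike the other abundant members it was higher in replicate 1, with 1043 CPM (1002 to 1086) there against 879 CPM (848 to 910.3) in replicate 2. The mean was 961 ± 116 CPM (SD, n = 2), rank 77, and its share of the cluster was 6.72% ± 0.974.

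Mir19a, whose mature strand belongs to the miR-19 seed family, had 29 counts in replicate 1 and 38 in replicate 2. These counts gave 12.5 CPM (8.36 to 17.9) and 10.9 CPM (7.71 to 14.96), and the mean of 11.7 ± 1.12 CPM (SD, n = 2) ranked 254. Mir19b-1, its partner in seed, had 10 and 21 counts in replicates 1 and 2, or 4.30 CPM (2.06 to 7.92) and 6.02 CPM (3.73 to 9.21), a mean of 5.16 ± 1.21 CPM (SD, n = 2) and rank 288. Together the miR-19 genes made up 0.119% of the cluster's counts in replicate 1 and 0.116% in replicate 2. None of the 6 members had a count on the opposite strand in either library, where a count of 0 allows up to 3 counts, which is 1.29 CPM in replicate 1 and 0.860 CPM in replicate 2.

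**Figure D1:**
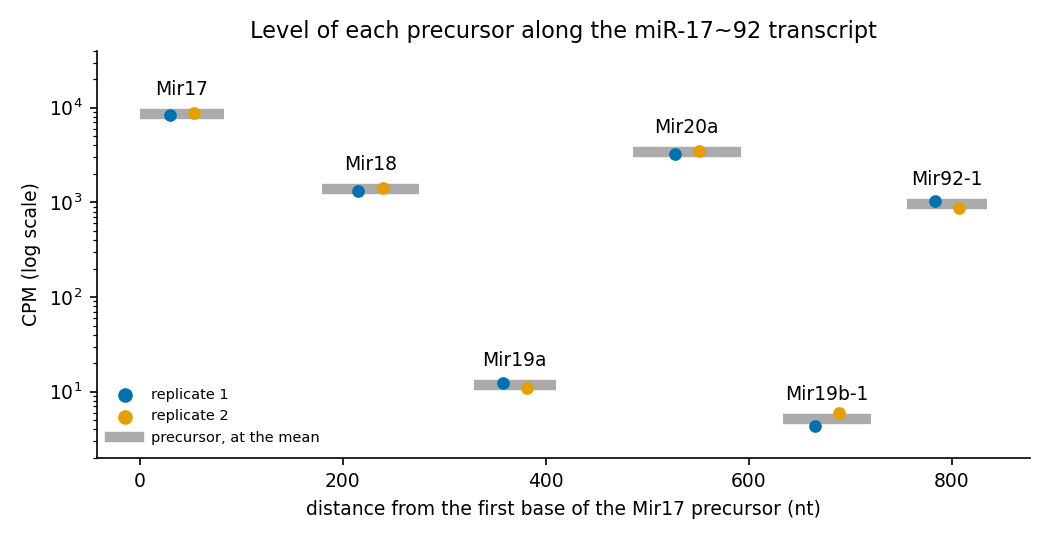
Level of each member in CPM (log scale) against distance along the transcript in nt from the first base of Mir17; grey bars mark each precursor at its mean level and points are the 2 libraries. Mir17, Mir18, Mir20a and Mir92-1 lie between 879 and 8724 CPM, and Mir19a and Mir19b-1, which lie between them on the transcript, at 12.5 CPM or less.

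The order of levels was thus Mir17, Mir20a, Mir18, Mir92-1, Mir19a and Mir19b-1, and it did not follow the order on the transcript. For each pair of neighbours in this order, the CPM of the 2 libraries did not overlap. At the bottom, the separate 95% intervals of Mir19a and Mir19b-1 overlapped in replicate 2. The 95% interval of their ratio in that library, a direct comparison, was 1.04 to 3.25. With 2 hearts no permutation test can give a p below 0.5, so no p is given for the order. Divided by precursor length, the order was the same, with 10208 CPM per 100 nt for Mir17, 3162 for Mir20a, 1439.9 for Mir18, 1201 for Mir92-1, 14.3 for Mir19a and 5.93 for Mir19b-1.

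Ratios within a library do not depend on library scaling. Counts of Mir20a over Mir18 were the steadiest between hearts, 2.44-fold in replicate 1 and 2.45-fold in replicate 2 (mean log2 ratio 1.29 ± 0.00254, SD, n = 2). Mir17 exceeded Mir18 6.32-fold in replicate 1 and 6.09-fold in replicate 2. Mir17 exceeded Mir92-1 by 8.08-fold and 9.93-fold in replicates 1 and 2, and Mir18 exceeded Mir92-1 by 1.28-fold and 1.63-fold. Of the pairs among the 4 abundant members, those with Mir92-1 had the wider spread between hearts, with SDs of the log2 ratio from 0.211 to 0.251, against 0.00254 to 0.0406 for pairs without it.

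The distance to the miR-19 genes was of another size. Mir20a, which lies directly between Mir19a and Mir19b-1, exceeded Mir19a 261-fold in replicate 1 (95% interval 182 to 390) and 322-fold in replicate 2 (234 to 455). It exceeded Mir19b-1 757-fold in replicate 1 (411 to 1579) and 583-fold in replicate 2 (381 to 942). Mir19a over Mir19b-1 was 2.90-fold (1.37 to 6.67) in replicate 1 and 1.81-fold (1.04 to 3.25) in replicate 2.

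Summed over its 6 members, the cluster held 32703 counts in replicate 1 and 50776 in replicate 2. This was 1.41% (1.39% to 1.42%) and 1.46% (1.44% to 1.47%) of the sense counts, with a mean of 14318 ± 343 CPM (SD, n = 2). Mir17 and Mir20a, whose 5p strands share a seed, together held 83.0% of the cluster's counts in replicate 1 and 84.0% in replicate 2, both arms of each hairpin included.

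The labelled tissue was checked against marker miRNAs. The heart muscle list, with 5 of 5 markers counted, reached 90126 CPM in replicate 1, against 88947 CPM in replicate 2. Nearly all of it came from the myosin-hosted Mir208a, Mir208b and Mir499, while Mir1a-1 and Mir133a-1 had between 17 and 25 counts. These symbols number the locus, and Mir133a-2, for example, is a separate gene. Because reads aligned to several places were not resolved by gene, such low counts do not give the level of miR-1a or miR-133a in the heart. The endothelial marker Mir126a had 108110 and 105610 CPM in replicates 1 and 2, and the smooth muscle markers Mir143 and Mir145a summed to 98349 and 102229 CPM. White cell markers (3 of 4 with a row) summed to 536 and 498 CPM, red cell markers (2 of 2) to 627 and 542 CPM, the liver marker Mir122 had 53.8 and 47.3 CPM, and the brain marker Mir124a-1 (1 of 2 with a row) had 0 counts in both hearts. In tissue RNA, fewer cells of a type and less RNA per cell cannot be told apart, and the part of each cell type in the levels of the cluster was not tested.

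For comparison, levels were set out in every genomic cluster, defined as miRNA genes on 1 strand with gaps of at most 10 kb and at least 4 genes with 10 or more counts in both libraries. There were 8 such clusters. Over the genes that met this count limit, the members of miR-17~92 spanned 10.70 log2 units of mean CPM from Mir17 to Mir19b-1, the widest span of the 8, whose median was 5.51. All 6 members met the limit, Mir19b-1 with exactly 10 counts in replicate 1, while 28 of 34 genes met it in the cluster from Mir379 to Mir3072 and 10 of 13 in that from Mir770 to Mir432. The next was the X-linked cluster from Mir450b to Mir322, which spanned 9.98 log2 units over 7 genes, from Mir322 at 57502 CPM to Mir450-2 at 57.1 CPM. This place depends on the count limit. With at least 1 count required in both libraries, the span of miR-17~92 was again 10.70 and ranked 3 of 9, below 13.28 for the cluster from Mir379 to Mir3072 and 12.30 for that from Mir770 to Mir432, whose lowest genes then had few counts. With at least 50 counts required, both miR-19 genes dropped out, the 4 remaining members spanned 3.16 log2 units, and miR-17~92 ranked 5 of 6. Both of these limits were chosen after the data were seen, and no test was made of the ranks.

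**Figure D2:**
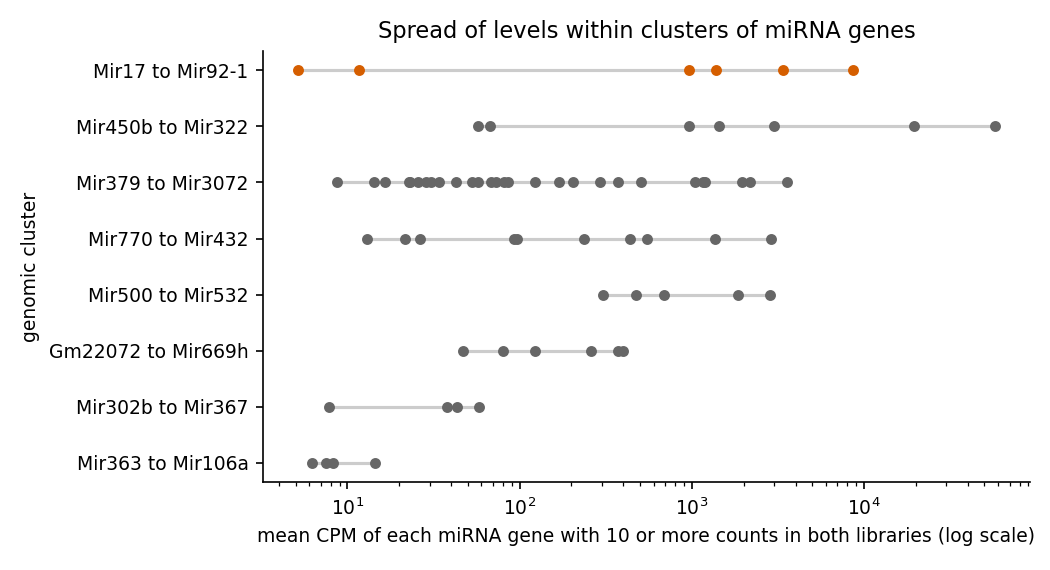
Mean CPM (log scale) of the miRNA genes with 10 or more counts in both libraries, in the 8 genomic clusters with at least 4 such genes, each named by its first and last gene, in order of their spread; miR-17~92 is in orange. Its 4 abundant members sit together and its 2 miR-19 genes stand far to the left, a spread of 10.70 log2 units, the widest among the genes drawn; genes with fewer counts are not drawn.

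The 2 hearts were close in the cluster as a whole, and the differences between them were small. The log2 ratio of replicate 1 over replicate 2 (pseudocount of 1 CPM) was -0.05 for Mir17, -0.10 for Mir18, -0.11 for Mir20a and 0.25 for Mir92-1. It was 0.18 for Mir19a and -0.40 for Mir19b-1. Thus 4 of 6 members were lower in replicate 1 and 2 were higher, beside 203 lower among the 348 genes tested. The median was -0.08 for the members and -0.04 over these 348 genes.

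The counts of the 2 libraries were compared at counting error by a two-sided exact binomial test for each of the 348 genes with at least 10 counts in sum (Benjamini-Hochberg adjustment), which compares libraries and not conditions. Mir92-1 passed the exact binomial test with 1.19-fold the CPM in replicate 1 (adjusted p = 1.81e-10). Mir20a was lower in replicate 1 (0.928-fold, adjusted p = 9.36e-05), as were Mir18 (0.930-fold, adjusted p = 0.0310) and Mir17 (0.966-fold, adjusted p = 0.0398), by the same exact binomial test. These folds are of plain CPM, while the test used library sizes scaled by TMM. On that scale the log2 ratios were 0.26 for Mir92-1, -0.09 for Mir20a, -0.09 for Mir18 and -0.03 for Mir17. Mir19a (adjusted p = 0.799) and Mir19b-1 (adjusted p = 0.681) did not pass the exact binomial test, and at 10 to 38 counts a difference of the size seen in the abundant members was not detectable.

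These 4 calls among 6 members, 1 higher and 3 lower in replicate 1, stand beside 97 calls among the 348 genes, or 27.9%, with 10.1% called higher and 17.8% called lower. Calls followed abundance: 56 of the 92 genes that averaged 500 CPM or more were called, or 60.9%. The median absolute log2 ratio was 0.07 over these 92 genes, and 12 of them had one at least as large as that of Mir92-1. The calls of Mir17 and Mir18 ended when every gene with at least 1 count was tested (adjusted p = 0.0695 and 0.0547, exact binomial test over 615 genes). No member passed edgeR's exact test with a common dispersion over both libraries, either after adjustment or at an unadjusted p under 0.05, where 16 of 348 genes fell. The summed epithelial markers, 5 of 5 counted, were 202 CPM in replicate 1 and 545 CPM in replicate 2, and their part in these differences was not tested.

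**Figure D3:**
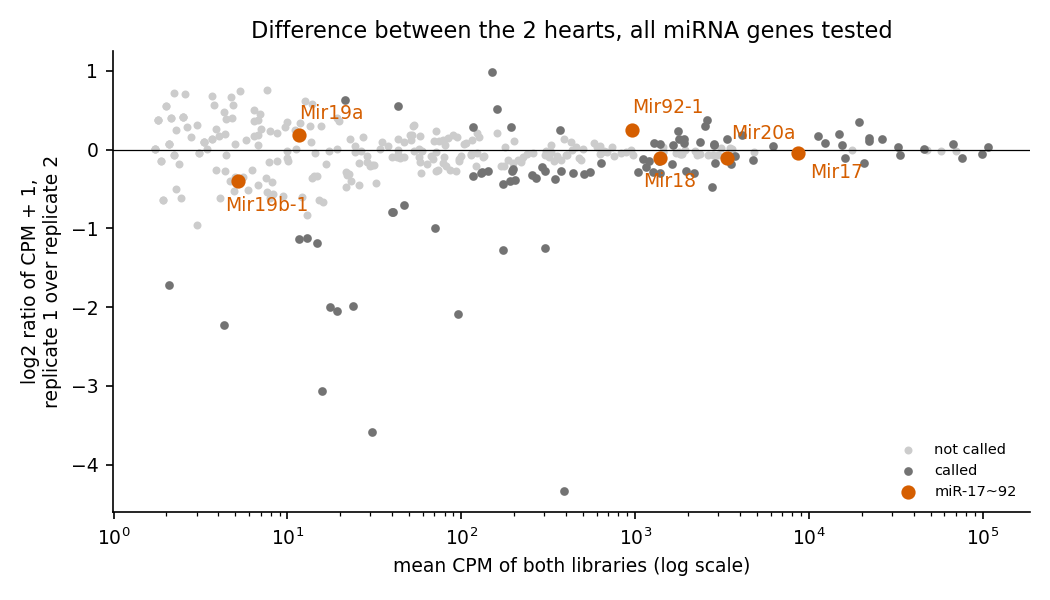
Log2 ratio of CPM + 1, replicate 1 over replicate 2, against mean CPM (log scale) for the 348 miRNA genes tested; dark points passed the exact binomial test at an adjusted p of 0.05 and orange points are miR-17~92. The 6 members lie between -0.40 and 0.25, and the 4 abundant ones are among many called genes with small ratios.

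The mouse genome carries 2 paralog clusters, miR-106b~25 in the gene Mcm7 on chromosome 5 and the miR-106a cluster (Mir106a to Mir363) on the X chromosome. With all members summed, miR-17~92 had 2.20-fold the counts of miR-106b~25 in replicate 1 and 2.16-fold in replicate 2 (mean log2 ratio 1.12 ± 0.0187, SD, n = 2). It had 380-fold the counts of the miR-106a cluster in replicate 1 and 323-fold in replicate 2 (mean log2 ratio 8.45 ± 0.165, SD, n = 2). The miR-106b~25 sum was 6571 ± 243 CPM and the miR-106a cluster sum 41.0 ± 5.66 CPM.

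Gene by gene, each abundant member exceeded the counterparts of like name or seed it was paired with; Mir93, at 3472 CPM, was not paired and was above Mir20a by mean level. Mir17 exceeded Mir106b 3.10-fold in replicate 1 and 3.07-fold in replicate 2, and Mir106a, whose mature strand differs from miR-17-5p by U10A alone, 1305-fold and 1014-fold. Mir18 exceeded Mir18b 774-fold (302 to 2843) and 333-fold (202 to 595) in replicates 1 and 2, and Mir20a exceeded Mir20b 505-fold and 350-fold. Mir92-1 exceeded Mir25 3.40-fold in replicate 1 and 2.67-fold in replicate 2, and Mir92-2, which encodes the same mature miR-92a-3p, 73.5-fold and 60.1-fold. Mir19b-1 over Mir19b-2, which encode the same miR-19b-3p, was 1.67-fold (0.549 to 5.58) in replicate 1 and 10.5-fold (2.57 to 92.4) in replicate 2, on 6 and 2 counts of Mir19b-2. Mir19b-2 was thus near the floor of 3 counts. An exact read of miR-92a-3p or miR-19b-3p cannot be placed at either of its loci by sequence. The ratios of Mir92-1 over Mir92-2 and of Mir19b-1 over Mir19b-2 thus rest on other reads or on an unstated rule. They do not show how much of the shared mature strand came from each locus.

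**Figure D4:**
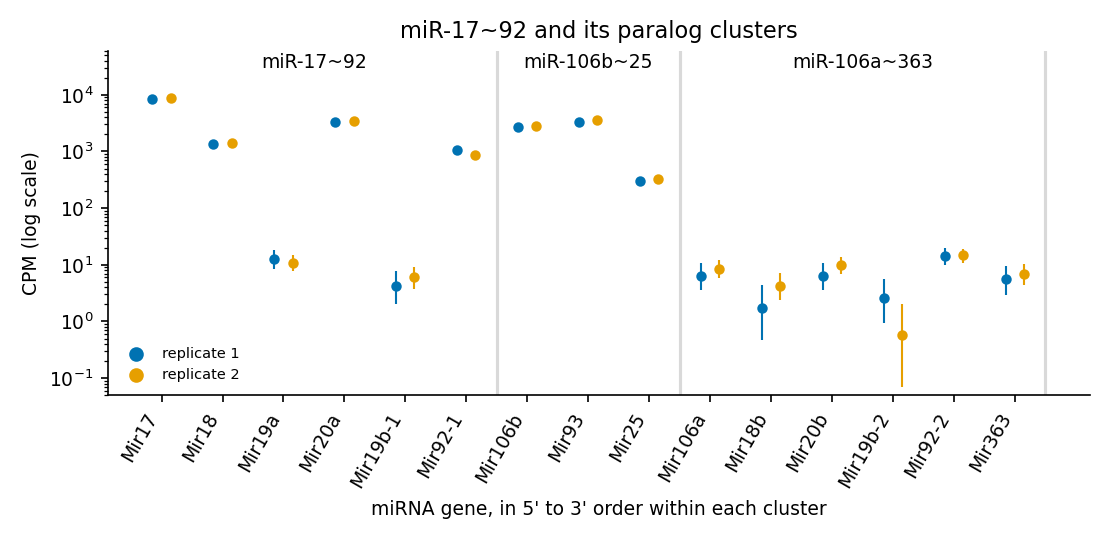
CPM (log scale) of the members of miR-17~92, miR-106b~25 and the X-linked miR-106a cluster in 5' to 3' order; points are the 2 libraries and bars the exact 95% intervals from counting. Mir17, Mir18, Mir20a and Mir92-1 lie at 879 CPM or more and Mir25 at 329 CPM or less, while Mir19a, Mir19b-1 and all X-linked genes lie at 14.6 CPM or less.

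Counts were also summed over all genes of the miRNA table whose annotated strands include the same seed, with both arms of each gene in its count. In these sums members of miR-17~92 held the larger part of each family. For the miR-17 seed AAAGUGC, carried by 7 genes, Mir17 and Mir20a together held 65.7% (65.2% to 66.1%) of counts in replicate 1 and 65.5% (65.2% to 65.9%) in replicate 2, or 11958 ± 389 CPM beside 6269 ± 231 CPM from the other loci, mostly Mir93 and Mir106b. For the miR-18 seed AAGGUGC, carried by 2 genes, Mir18 held 99.9% in replicate 1 and 99.7% in replicate 2. For the miR-92 seed AUUGCAC, carried by 7 genes, Mir92-1 held 70.5% (68.9% to 72.01%) in replicate 1 and 63.1% (61.8% to 64.5%) in replicate 2. The other loci of that seed, led by Mir25 and Mir32, had 437 CPM in sum in replicate 1, against 513 CPM in replicate 2.

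The miR-19 seed GUGCAAA, carried by 3 genes, was the lowest of the 4 families. Mir19a and Mir19b-1 had a sum of 16.8 CPM in replicate 1, against 16.9 CPM in replicate 2, and the only other gene of the seed, Mir19b-2, had 2.58 and 0.574 CPM in replicates 1 and 2. These sums do not include the summary count of reads aligned to several places, and how such reads were handled is not given. That touches the miR-19 and miR-92 seeds through the mature strands annotated at 2 loci.

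**Figure D5:**
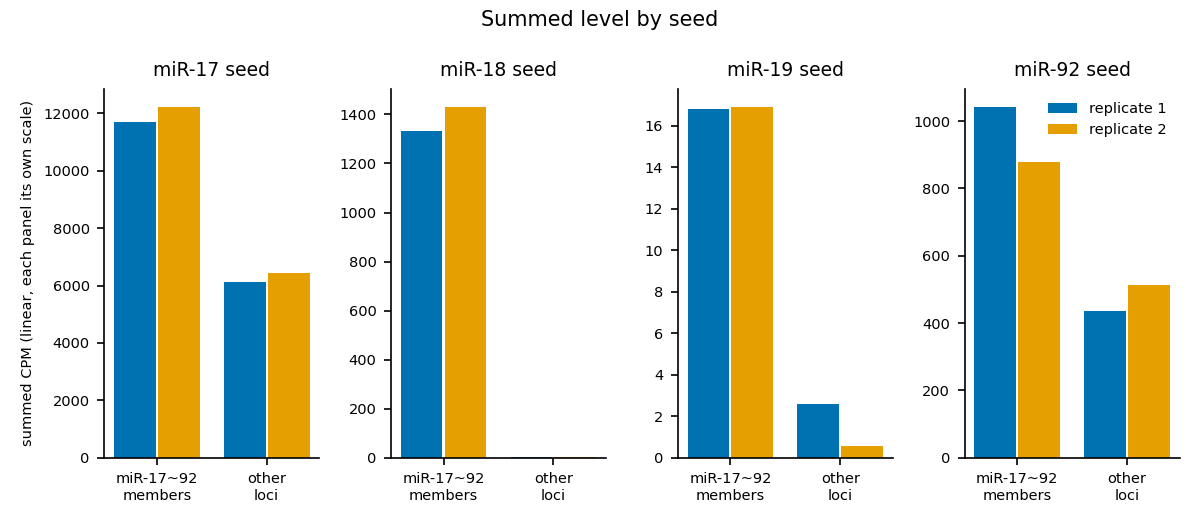
Summed CPM (linear, each panel with its own scale) of miR-17~92 member genes and of all other loci with the same seed, both arms included, for the 4 seeds; bars are the 2 libraries. Members of miR-17~92 are the taller bars for each seed, at 11683 and 12233 CPM for miR-17 and at 16.8 and 16.9 CPM for miR-19.

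In mean level over the 2 libraries, the genes ranked directly next to each member were as follows. Mir17 stood between Mir99b (11256 CPM) and Mir652 (6217 CPM), and Mir20a between its seed relative Mir93 (3472 CPM) and Mir139 (3354 CPM). Mir18 stood between Mir10b (1388 CPM) and Mir101b (1368 CPM), and Mir92-1 between Mir450b (969 CPM) and Mir28a (945 CPM). Mir19a stood between Mir702 (11.8 CPM) and Mir34b (11.6 CPM), and Mir19b-1 between Mir1927 (5.31 CPM) and Mir6990 (5.02 CPM). Apart from Mir17, each member was within 0.05 log2 units of both neighbours in this mean, which is a likeness of mean level over 2 libraries only. Single libraries could lie further apart. Mir34b, for example, had 6.89 CPM in replicate 1 and 16.3 CPM in replicate 2, beside 12.5 and 10.9 CPM for Mir19a.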

How the data were processed

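The deposited tables gave raw counts for each miRNA gene, with no normalization. Per the labels, the assembly was mm10, and the annotation GENCODE M4, as the deposited descriptions say. The aligner, counter and handling of reads aligned to several places are not given in the sources used here. The 4 summary rows (unmapped, aligned to several places, on no feature, ambiguous) did not enter library sizes. The sense-strand column was used. It held 46.0% of 5052766 reads in replicate 1 and 46.9% of 7441784 reads in replicate 2.

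Identifiers were matched to GENCODE M21 on GRCm38, where 1894 of 1973 matched and the 79 others had 0 counts. CPM, shares, exact intervals (SciPy 1.17.1) and ratios were computed per library. The exact binomial test used library sizes scaled by TMM (edgeR 4.0.16 in R 4.3.3), a threshold of 0.05 and all genes with at least 10 counts in sum. It was tried on simulated counts drawn with counting error alone, the model that the test itself assumes. That trial therefore cannot show how the test behaves under variation between hearts. A quasi-likelihood fit was not possible with 1 library a side. Sequences are from RefSeq. DESeq2 1.42.0 gave size factors for an alternative. Members and gene lists were chosen with earlier results of these data known. Named genes were the members, their paralogs, the genes directly above and below each member in mean CPM, the genomic cluster next in spread and the marker miRNAs. Mir32 and the clusters from Mir379 and from Mir770 were named after their values were seen. With 2 hearts of 1 litter, spread covers neither litters nor preparation apart from animal.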

Additional observations from a re-analysis of the deposited data

How the results depend on the processing

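The cluster's summed level was 13367 CPM with counts of both strands and 6648 when scaled to 1000000 of all reads, and ranged from 14075 to 14561 CPM when each replicate was left out. Its log2 ratio over both paralog clusters was 1.12 and ranged from 1.10 to 1.13 without 1 replicate, and it was 1.02 without the loci whose mature strand lies elsewhere too. The number of genes called between the libraries was 97, with 86 to 104 under other scalings, a lower filter and both strands, and 7 by edgeR's exact test. The number of members called was 4, 2 with every counted gene tested and 0 by edgeR's exact test. The dispersion of edgeR's exact test was estimated from the same 2 libraries taken as 1 group, so differences between them entered it. The exact binomial test holds counting error alone. No other reason for the drop was tested. The spread of levels within the cluster was 10.70 log2 units, also with gaps of up to 50 kb and with at least 1 count required, and 3.16 with at least 50 counts; its rank among clusters was 1, 1, 3 and 5. Both count limits were chosen after seeing the data. The direction of all 15 ratios between members and of all 6 ratios between hearts was the same in every alternative run for them. No paired analysis was possible because the series holds 1 group. The depth limits Mir19a, Mir19b-1 and the X-linked paralogs most, at 2 to 51 counts per library.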

Other observations

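Among miRNA genes with a mature strand in the RefSeq table and a row in the counts, 83 had a mature strand annotated at another locus too, as Mir19b-1 and Mir92-1 do. Of these 83 genes, 36 (43.4%) had 0 counts in both hearts and 15 (18.1%) reached 100 CPM, Mir92-1 among them. Of the other 775, which include Mir17, Mir18, Mir19a and Mir20a, 313 (40.4%) had 0 counts and 120 (15.5%) reached 100 CPM. The highest mean level was 2825 CPM in the first set and 106860 CPM in the second. Mir19b-1, at 5.16 CPM, was above the median of the first set, 1.29 CPM, and Mir19a, at 11.7 CPM, above the median of the second, 0.359 CPM. Both medians were low, so a place above them is no sign of a high level. The effect of a shared mature strand on counts was not tested.

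The predicted minimum free energies of the 6 precursors (RNAfold 2.7.2) ran from -38.7 kcal/mol for Mir19a to -29.2 kcal/mol for Mir18, with -38.6 for Mir20a, -37.8 for Mir19b-1, -36.7 for Mir17 and -34.0 for Mir92-1. Their GC content lay between 43.7% and 47.5%. The order of these energies was not the order of the levels.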
